A study of Homo sapiens with 12 samples.

Results

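The 35 genes described here encode the core machinery of macroautophagy, and they were chosen by gene symbol from the 59324 rows of a table of gene expression. They comprise 10 genes of autophagosome initiation, 5 that supply membrane and lipid to the growing autophagosome, 10 of the conjugation and processing of ATG8 proteins, 5 ATG8 proteins and 5 cargo receptors. All 35 were found in the table, and 34 passed a minimum mean of 1 TPM over the 12 libraries; MAP1LC3A did not. The RNA came from MDA-MB-468, an established line of human breast cancer cells that lack hormone receptors and ERBB2 amplification. The combination group (3 libraries) received SAHA at 10 µM for 12 h and sonidegib at 10 µM, which the labels call a pretreatment of 72 h. The SAHA group (3 libraries) received SAHA alone, the sonidegib group (3 libraries) sonidegib alone, and the control group (3 libraries) neither drug. SAHA, also called vorinostat, blocks histone deacetylases that use zinc. Sonidegib blocks Smoothened, the membrane protein that carries the Hedgehog signal. All groups are the same line, and the labels give neither how long the control cells were kept, nor whether sonidegib stayed on during SAHA, nor whether the replicates were grown separately. The p-values therefore measure the spread between these libraries, which may be technical.

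In macroautophagy a cup of membrane grows around cytoplasmic material, closes into an autophagosome and fuses with a lysosome, which digests the contents. The ULK kinase complex starts the process, a class III phosphatidylinositol 3-kinase marks the membrane, and ATG9, ATG2 and WIPI proteins feed and organise its growth. An enzyme cascade related to ubiquitin conjugation then attaches ATG8 proteins (the LC3 and GABARAP families) to the lipid phosphatidylethanolamine, and cargo receptors link ubiquitin-tagged material to those ATG8 proteins. Messenger RNA levels of these genes say how much transcript was present, and do not measure the flow of material through the pathway.

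Levels are in TPM, a share of all transcripts corrected for transcript length, so levels of different genes can be compared. TPM keep no read counts, and the depth of each library is unknown. A TPM value comes from the RNA of a whole culture, so fewer cells of one state and less RNA per cell cannot be told apart. Between 20125 and 21402 genes were above 0 per library. The 17 annotated 5S ribosomal RNA genes had a sum of 1488 to 12641 TPM in the 6 libraries that received sonidegib and were at 0 in the 6 that did not; a difference in preparation or processing between these sets cannot be told apart from sonidegib. The combination minus sonidegib and SAHA minus control each stay within one set. Mitochondrial ribosomal RNA made up 2.61% ± 0.229 of TPM in the combination, 1.24% ± 0.0954 with SAHA, 2.23% ± 0.223 with sonidegib and 0.616% ± 0.0526 in control, and mitochondrial messenger RNA 8.74% ± 0.92, 9.66% ± 0.789, 6.87% ± 0.528 and 6.82% ± 0.677 (SD, n = 3 each), so both also differed between SAHA and control. With these and ribosomal RNA genes removed, 2 of the 24 member calls with SAHA, 4 of 26 in the combination and 1 of 21 with sonidegib were lost. The 6 epithelial markers of the line were all expressed. Their sum was 4751 to 4897 TPM in the combination, 9492 to 9922 TPM with SAHA, 4806 to 5169 TPM with sonidegib and 8196 to 9069 TPM in control, lower in every library with sonidegib, while EGFR stood at 516 to 678 TPM throughout. Of the hormone receptors, PGR was at 0 and ESR1 at 0.23 to 1.76 TPM. ERBB2 averaged 6.48 ± 0.873 TPM in the combination, 3.94 ± 0.805 TPM with SAHA, 24.4 ± 1.91 TPM with sonidegib and 10.4 ± 1.1 TPM in control. Of 4 leukocyte markers, PTPRC and CD3E were at or near 0 (at most 0.09 TPM). CD14 stood at 207 to 336 TPM and CD68, a lysosomal membrane protein, at 3.61 to 12.3 TPM. The summed leukocyte markers ranged over 217 to 232 TPM in the combination, 310 to 346 TPM with SAHA, 312 to 323 TPM with sonidegib and 301 to 326 TPM in control. The 6 fibroblast and endothelial markers summed to 10.0 to 10.4, 11.0 to 13.9, 5.1 to 8.1 and 3.1 to 4.8 TPM in the same order of groups, of which COL1A1 was the largest part in every library (2.83 to 12.8 TPM). PECAM1 reached 1.03 TPM, PDGFRB 0.87 TPM, and VWF, COL3A1 and CDH5 at most 0.4 TPM. The part of these markers and of the mitochondrial shares in the results was not tested beyond that.

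The tested ATG8 genes and WIPI1 were higher in each treatment than in control, and SQSTM1 was lower in both groups with SAHA. With sonidegib alone SQSTM1 overlapped control, and its call as lower was lost in 15 of 23 alternative settings. In the combination, limma called 20 of the 34 tested members higher and 6 lower than in control (adjusted p under 0.05, Benjamini-Hochberg over all genes). Of all 13937 tested genes 63.7% were called in that comparison, 29.7% higher and 34% lower. With SAHA alone 20 members were higher and 4 lower, against 58.7% of all tested genes called, 31.8% higher and 26.9% lower. With sonidegib alone 16 members were higher and 5 lower, against 55.3% of all tested genes, 26.1% higher and 29.2% lower. The called members thus made up 76.5% in the combination, 70.6% with SAHA and 61.8% with sonidegib, to be read against those high shares of all genes, and most of them were higher. The median log2 change of the members was 0.41 in the combination, 0.38 with SAHA and 0.25 with sonidegib, where the median of all tested genes was -0.02, 0.05 and -0.02. These comparisons share the 3 control libraries. Of the members called, 16 of 26 in the combination, 18 of 24 with SAHA and 14 of 21 with sonidegib passed under every one of the alternative settings that could be run (up to 23). With other scalings of the libraries the split of called members in the combination was 22 higher and 2 or 3 lower.

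**Figure D1:**
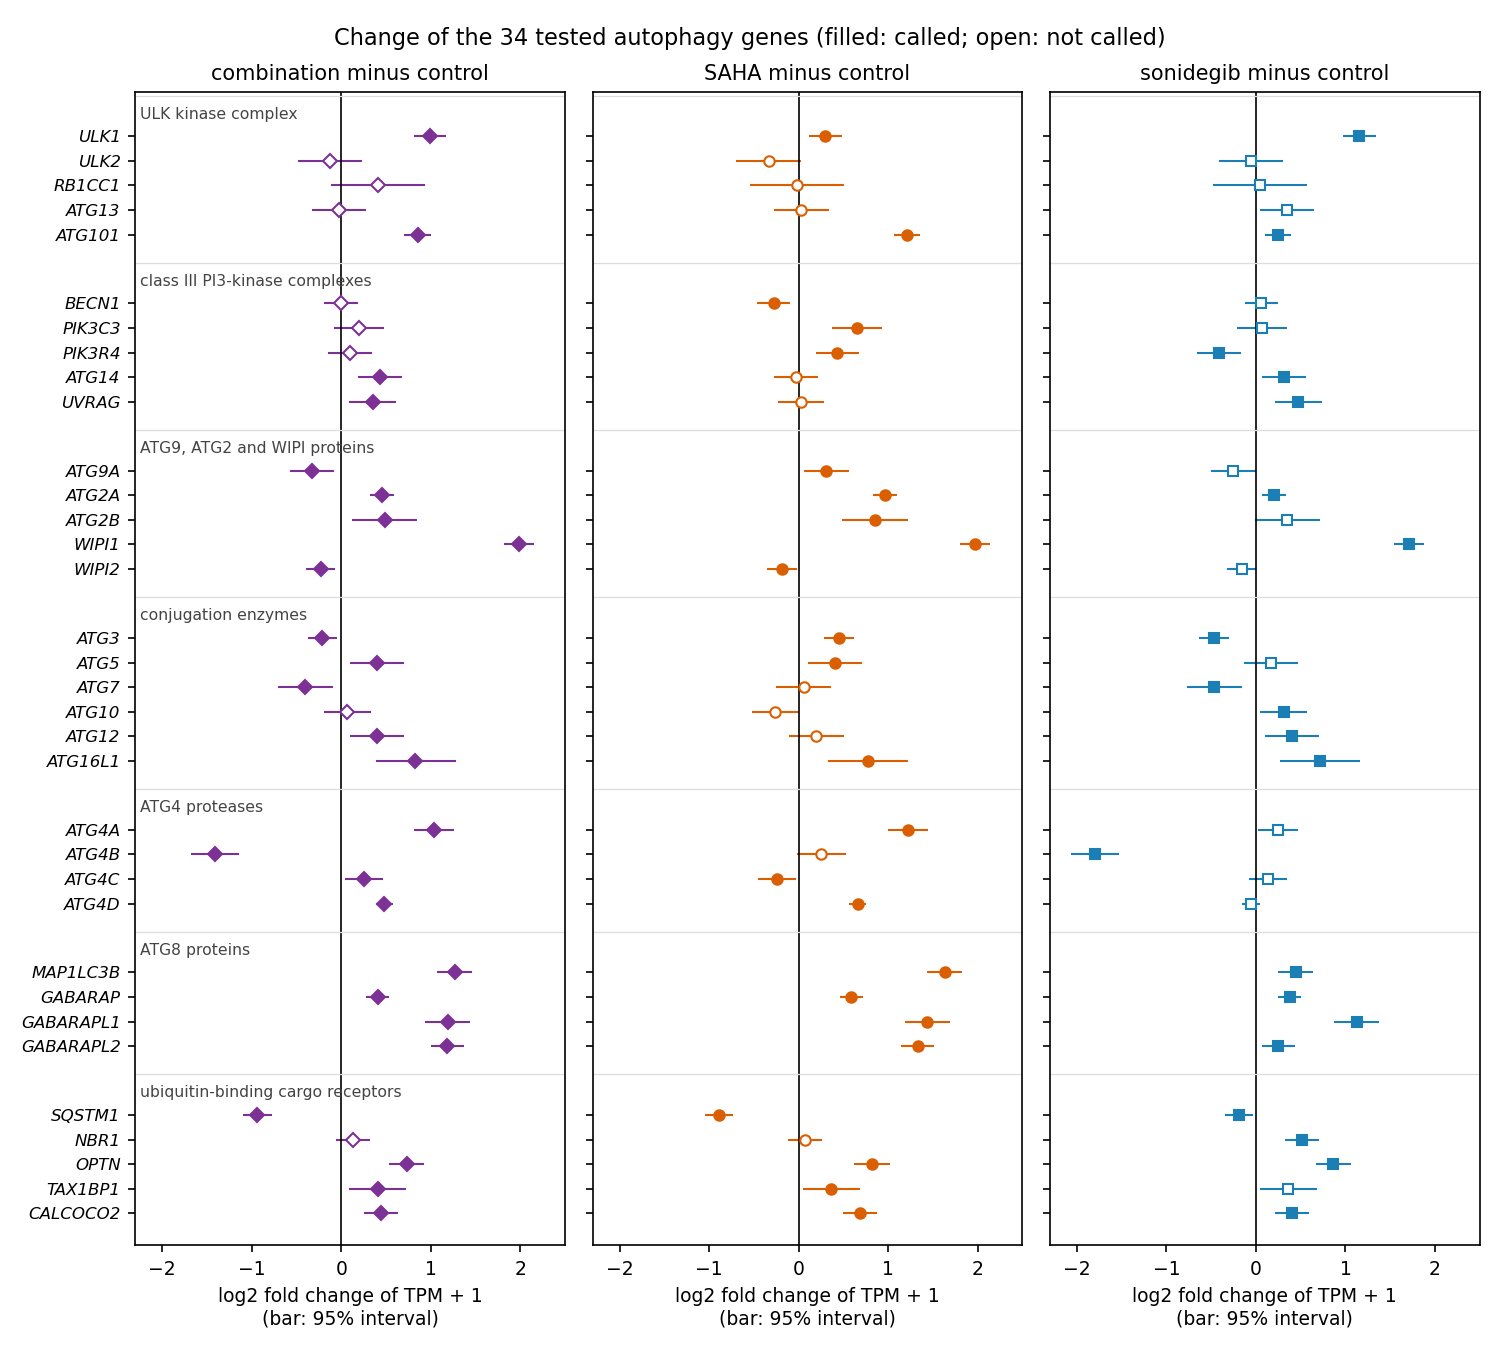
Log2 fold change of TPM + 1 (x axis) of the 34 tested autophagy genes, grouped by role, in the combination, SAHA and sonidegib groups, each minus control. Points are limma estimates with 95% intervals; filled points passed an adjusted p of 0.05. WIPI1 and the 4 ATG8 genes lie right of 0 in all 3 panels, and ATG4B lies far to the left with the combination (-1.41) and with sonidegib (-1.80) but not with SAHA (0.26).

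Levels differed widely between members. SQSTM1 was the most abundant in control, at 451 ± 36.9 TPM (SD, n = 3), followed by GABARAP at 194 ± 8.92 TPM. GABARAPL2, ATG3, TAX1BP1 and ATG4D came next at 83.7 to 87.4 TPM, and these 4 were not separated by their spread. The 5 tested members with a control mean under 5 TPM were ULK1, ULK2, ATG10, ATG14 and ATG2B, the lowest at 1.08 TPM. For such genes the added 1 of the log2(TPM + 1) scale makes changes look smaller. MAP1LC3A, the LC3A gene, was at 0 to 0.14 TPM in the combination, 0 to 0.11 TPM with SAHA, 0 with sonidegib and 0 to 0.23 TPM in control. Summed over the 35 genes, the mean level was 1800 ± 100 TPM in the combination, 2080 ± 48.6 TPM with SAHA, 1690 ± 54.3 TPM with sonidegib and 1580 ± 28.7 TPM in control (SD, n = 3 each).

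In the ULK complex, ULK1 and ATG101 rose in every treatment, each mainly with a different drug. ULK1 (chr12:131894651-131923167, plus strand, GRCh38) encodes the kinase that starts autophagosome formation. Its level was 7.63, 8.37 and 9.02 TPM in the combination libraries, 4.76, 4.70 and 4.84 TPM with SAHA, 10.0, 9.28 and 9.04 TPM with sonidegib, and 3.65, 3.60 and 3.82 TPM in control. The sonidegib libraries were highest and no groups overlapped. The log2 change against control was 0.99 ± 0.08 (SE) in the combination, 0.30 ± 0.08 with SAHA and 1.16 ± 0.08 with sonidegib (limma adjusted p 1.02e-06, 0.00878 and 5.56e-07). ATG101 (chr12:52069246-52077494, plus strand), which encodes a subunit that stabilises ATG13, was at 91.7, 105 and 102 TPM in the combination, 122, 137 and 124 TPM with SAHA, 64.3, 63.3 and 67.1 TPM with sonidegib, and 51.5, 57.4 and 55.0 TPM in control. Here SAHA was highest, and again the groups were apart. The log2 change was 0.85 ± 0.07 in the combination, 1.21 ± 0.07 with SAHA and 0.25 ± 0.07 with sonidegib, all called. ULK2, the other ULK kinase, RB1CC1, the scaffold also known as FIP200, and ATG13, the adaptor that links the kinase to the scaffold, were called in none of the 6 comparisons. ATG13 was nearest, with a log2 change of 0.34 with sonidegib (adjusted p 0.0525, called in 8 of 23 alternatives), and RB1CC1 was the most variable, at 5.09 to 8.99 TPM among the control libraries.

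The class III phosphatidylinositol 3-kinase genes changed little and did not move together. PIK3C3, the catalytic subunit VPS34, was at 14.4, 17.5 and 22.0 TPM in the combination, 23.2, 24.5 and 26.1 TPM with SAHA, 16.5, 15.4 and 16.4 TPM with sonidegib, and 14.0, 14.8 and 17.2 TPM in control. It rose with SAHA (log2 0.65 ± 0.13, adjusted p 0.000887), and the SAHA libraries lay above all others. PIK3R4, the regulatory subunit VPS15, was at 15.5, 19.3 and 20.8 TPM in the combination, 22.6, 24.1 and 23.9 TPM with SAHA, 12.2, 13.6 and 12.1 TPM with sonidegib, and 14.8, 18.6 and 18.1 TPM in control. It was higher with SAHA (log2 0.43 ± 0.11) and lower with sonidegib (-0.41 ± 0.11), and the combination (0.10 ± 0.11) was not called. BECN1, or Beclin 1, the scaffold subunit, was at 28.7, 30.3 and 34.6 TPM in the combination, 26.3, 25.1 and 25.3 TPM with SAHA, 31.7, 32.0 and 34.3 TPM with sonidegib, and 31.8, 27.9 and 34.4 TPM in control. The fall with SAHA (log2 -0.28 ± 0.09, adjusted p 0.0147) was lost without control replicate 3 (-0.21, adjusted p 0.062). The subunits that set apart the alternative forms of the complex rose with sonidegib. UVRAG, of the endosomal form, was at 8.96, 12.4 and 11.3 TPM in the combination, 7.91, 7.61 and 9.87 TPM with SAHA, 11.6, 12.1 and 11.8 TPM with sonidegib, and 7.66, 8.73 and 8.34 TPM in control. On the log2 scale its change was 0.47 ± 0.12 with sonidegib, and 0.35 ± 0.12 in the combination, where the call was lost in 4 of 23 alternatives, among them those without control replicate 1 (0.31), combination replicate 2 (0.26) or combination replicate 3 (0.32). ATG14, of the form that acts in autophagosome formation, was at 3.06, 3.71 and 3.46 TPM in the combination, 2.08, 2.31 and 2.20 TPM with SAHA, 3.15, 2.85 and 3.17 TPM with sonidegib, and 2.13, 2.10 and 2.60 TPM in control. All 6 libraries with sonidegib lay above all 6 without it. The log2 change was 0.43 ± 0.11 in the combination and 0.31 ± 0.11 with sonidegib; the sonidegib call was lost in 7 of 22 alternatives, 4 of them with a library left out (0.27 to 0.29).

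WIPI1 had the largest rise of the 34 members in each treatment. It encodes a protein that binds phosphatidylinositol 3-phosphate on the growing membrane. WIPI1 (ENSG00000070540, chr17:68420948-68457513, minus strand) was at 43.0, 48.6 and 44.3 TPM in the combination libraries, 42.8, 45.5 and 46.1 TPM with SAHA, 35.3, 38.9 and 37.4 TPM with sonidegib, and 9.91, 10.3 and 11.9 TPM in control. The control libraries lay far below the rest, and the combination overlapped SAHA. The mean ratio to control was 4.23 in the combination, 4.17 with SAHA and 3.47 with sonidegib. On the log2 scale the changes were 1.99 ± 0.08, 1.97 ± 0.08 and 1.71 ± 0.08 (adjusted p 2.78e-09, 4.3e-09 and 2.2e-08), and all held in every alternative. The 250 bases before the RefSeq start of WIPI1 (GRCh38.p14, chr17:68457497-68457746, minus strand) are shown because they carry 7 copies of GGGGCGGGG, the GC box bound by SP and KLF zinc finger factors. Capitals mark the copies.
WIPI1: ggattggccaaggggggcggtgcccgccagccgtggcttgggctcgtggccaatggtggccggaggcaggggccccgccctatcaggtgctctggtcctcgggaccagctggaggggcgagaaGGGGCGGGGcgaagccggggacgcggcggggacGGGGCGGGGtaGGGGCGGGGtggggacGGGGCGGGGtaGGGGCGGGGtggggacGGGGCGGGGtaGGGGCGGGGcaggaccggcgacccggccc
Among all 35116 promoter windows of the RefSeq table, which run from 250 bases before to 50 after a start, 15.7% held GGGGCGGGG on either strand at least once. Of these windows, 0.0541% (19 windows) held it 7 times or more. The motif was chosen after the sequence had been read, and the count is a description of the letters.

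The other genes of membrane supply were mixed. ATG2A and ATG2B encode lipid transfer proteins that bridge the endoplasmic reticulum and the growing membrane. ATG2A was at 22.9 to 24.3 TPM in the combination, 32.8 to 35.5 TPM with SAHA, 19.2 to 20.1 TPM with sonidegib and 15.8 to 17.8 TPM in control, so that the groups did not overlap. The fitted log2 change was 0.45 ± 0.06 in the combination, 0.96 ± 0.06 with SAHA and 0.20 ± 0.06 with sonidegib, where the call was lost without control replicate 2 (0.15). ATG2B, at 0.91 to 3.58 TPM, was higher in the combination (0.49 ± 0.17, lost without control replicate 1, control replicate 2, combination replicate 1 or combination replicate 3, at 0.43 to 0.48) and with SAHA (0.85 ± 0.17). ATG9A, the lipid scramblase of the vesicles that seed the membrane, was at 28.3, 31.9 and 36.0 TPM in the combination, 50.6, 51.9 and 48.1 TPM with SAHA, 31.5, 37.5 and 32.2 TPM with sonidegib, and 46.3, 34.5 and 40.9 TPM in control. The SAHA libraries were highest and the combination overlapped control. Its change on the log2 scale was -0.33 ± 0.11 in the combination and 0.31 ± 0.11 with SAHA, both called, but lost in 9 and 11 of 23 alternatives. WIPI2, which recruits ATG16L1 to the membrane, was at 51.5, 59.2 and 59.5 TPM in the combination, 61.5, 58.3 and 55.4 TPM with SAHA, 61.8, 57.7 and 59.1 TPM with sonidegib, and 61.1, 70.7 and 68.1 TPM in control. The fitted log2 change was -0.23 ± 0.07 in the combination and -0.19 ± 0.07 with SAHA, called but lost in 8 and 13 of 23 alternatives. WIPI1 and WIPI2 thus had calls of opposite sign in these comparisons. By annotation, 38.8% of the exon bases of ATG9A are shared with AC068946.2 on the same strand (9.01 TPM), and 24.3% of those of WIPI1 with ARSG on the opposite strand (0.91 TPM), so reads there may be split between the genes. Members of other subsets share exon bases too. Examples are GABARAP with AC120057.2 on the same strand (30.5%, 0.95 TPM), and on the opposite strand SQSTM1 with MRNIP (20.7%, 21.3 TPM), ATG7 with VGLL4 (18.1%, 10.9 TPM) and ATG4D with KRI1 (15%, 76.8 TPM).

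All 4 tested ATG8 genes were higher in every treatment, by each comparison's own test. ATG8 proteins are small ubiquitin-like proteins that coat the autophagosome and dock its cargo receptors. MAP1LC3B (ENSG00000140941, chr16:87383995-87404779, plus strand), the LC3B gene, was at 108, 127 and 127 TPM in the combination, 155, 145 and 166 TPM with SAHA, 68.2, 62.9 and 71.4 TPM with sonidegib, and 45.8, 47.5 and 55.2 TPM in control. No groups overlapped. Its log2 change was 1.27 ± 0.09 in the combination, 1.63 ± 0.09 with SAHA and 0.44 ± 0.09 with sonidegib (adjusted p 2.58e-07, 4.54e-08 and 0.0014). GABARAPL2 (GATE-16) followed the same order of means, with the combination overlapping SAHA, at 176, 209 and 217 TPM in the combination, 215, 212 and 238 TPM with SAHA, 108, 97.3 and 107 TPM with sonidegib, and 85.5, 83.4 and 93.4 TPM in control. The fitted log2 change was 1.18 ± 0.08 in the combination, 1.33 ± 0.08 with SAHA and 0.25 ± 0.08 with sonidegib; the sonidegib call was lost in 5 of 23 alternatives, 4 of them with a library left out (0.22 to 0.23). GABARAPL1 (ENSG00000139112, chr12:10212458-10223130, plus strand) responded to both drugs. It was at 42.0, 45.8 and 54.8 TPM in the combination, 52.7, 56.4 and 60.0 TPM with SAHA, 40.7, 46.0 and 49.6 TPM with sonidegib, and 19.0, 18.6 and 23.3 TPM in control. The combination overlapped both single drugs, SAHA lay above sonidegib without overlap, and all were above control. Its log2 change was 1.19 ± 0.11 in the combination, 1.44 ± 0.11 with SAHA and 1.13 ± 0.11 with sonidegib (adjusted p 3.3e-06, 8.47e-07 and 8.16e-06). GABARAP, the most abundant ATG8 gene, had the smaller rises of 0.41 ± 0.06 in the combination, 0.59 ± 0.06 with SAHA and 0.38 ± 0.06 with sonidegib.

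The promoters of MAP1LC3B and GABARAPL1 are shown because these ATG8 genes rose with SAHA by similar amounts but differed with sonidegib. Each line gives the 250 bases before the RefSeq start in GRCh38.p14, at chr16:87392086-87392335 (plus strand) for MAP1LC3B and chr12:10212627-10212876 (plus strand) for GABARAPL1. In MAP1LC3B the capitals mark a GC box on the reverse strand (CCCCGCCCC) and a match to TGACNNNGC, the core of the antioxidant response element bound by NRF2. In GABARAPL1 they mark 2 overlapping GC boxes and TGACGTCA, the cyclic AMP response element bound by CREB and ATF proteins.
MAP1LC3B: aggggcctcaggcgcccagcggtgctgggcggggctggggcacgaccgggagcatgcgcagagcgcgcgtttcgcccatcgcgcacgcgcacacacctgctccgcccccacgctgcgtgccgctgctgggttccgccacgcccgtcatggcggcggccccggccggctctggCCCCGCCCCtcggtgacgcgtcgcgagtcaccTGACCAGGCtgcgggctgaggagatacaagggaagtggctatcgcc
GABARAPL1: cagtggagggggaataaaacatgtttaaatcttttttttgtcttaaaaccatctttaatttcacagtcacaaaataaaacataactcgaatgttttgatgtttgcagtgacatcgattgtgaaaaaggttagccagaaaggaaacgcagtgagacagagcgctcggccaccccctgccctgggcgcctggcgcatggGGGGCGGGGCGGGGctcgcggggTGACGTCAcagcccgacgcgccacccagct
The TGACNNNGC match lay 46 bases before the start of MAP1LC3B, and 13.3% of all windows held that motif. TGACGTCA lay 30 bases before the start of GABARAPL1, and 1.85% of all windows held it; it too was chosen after the letters had been read.

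The composition of the ATG8 pool shifted. The summed ATG8 level was 626 ± 32 TPM in the combination, 725 ± 36.1 TPM with SAHA, 469 ± 14.8 TPM with sonidegib and 351 ± 18.9 TPM in control (SD, n = 3 each), and these ranges did not overlap. MAP1LC3B made up 19.2% ± 0.932 of that sum in the combination, 21.4% ± 0.419 with SAHA, 14.4% ± 0.545 with sonidegib and 14.1% ± 0.908 in control. GABARAP made up 41.2% ± 3.96, 40.2% ± 1.01, 53.7% ± 1.03 and 55.2% ± 1.67 in the same groups. Thus GABARAP held over 50% of the pool in libraries without SAHA and less in those with it. MAP1LC3B2, a near-identical copy of MAP1LC3B, was at 1.87 ± 0.448 TPM in the combination, 2.42 ± 0.95 TPM with SAHA, 0.49 ± 0.27 TPM with sonidegib and 0.557 ± 0.14 TPM in control. Reads shared between these copies may be split. MAP1LC3C and GABARAPL3 were listed at 0 in every library.

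**Figure D2:**
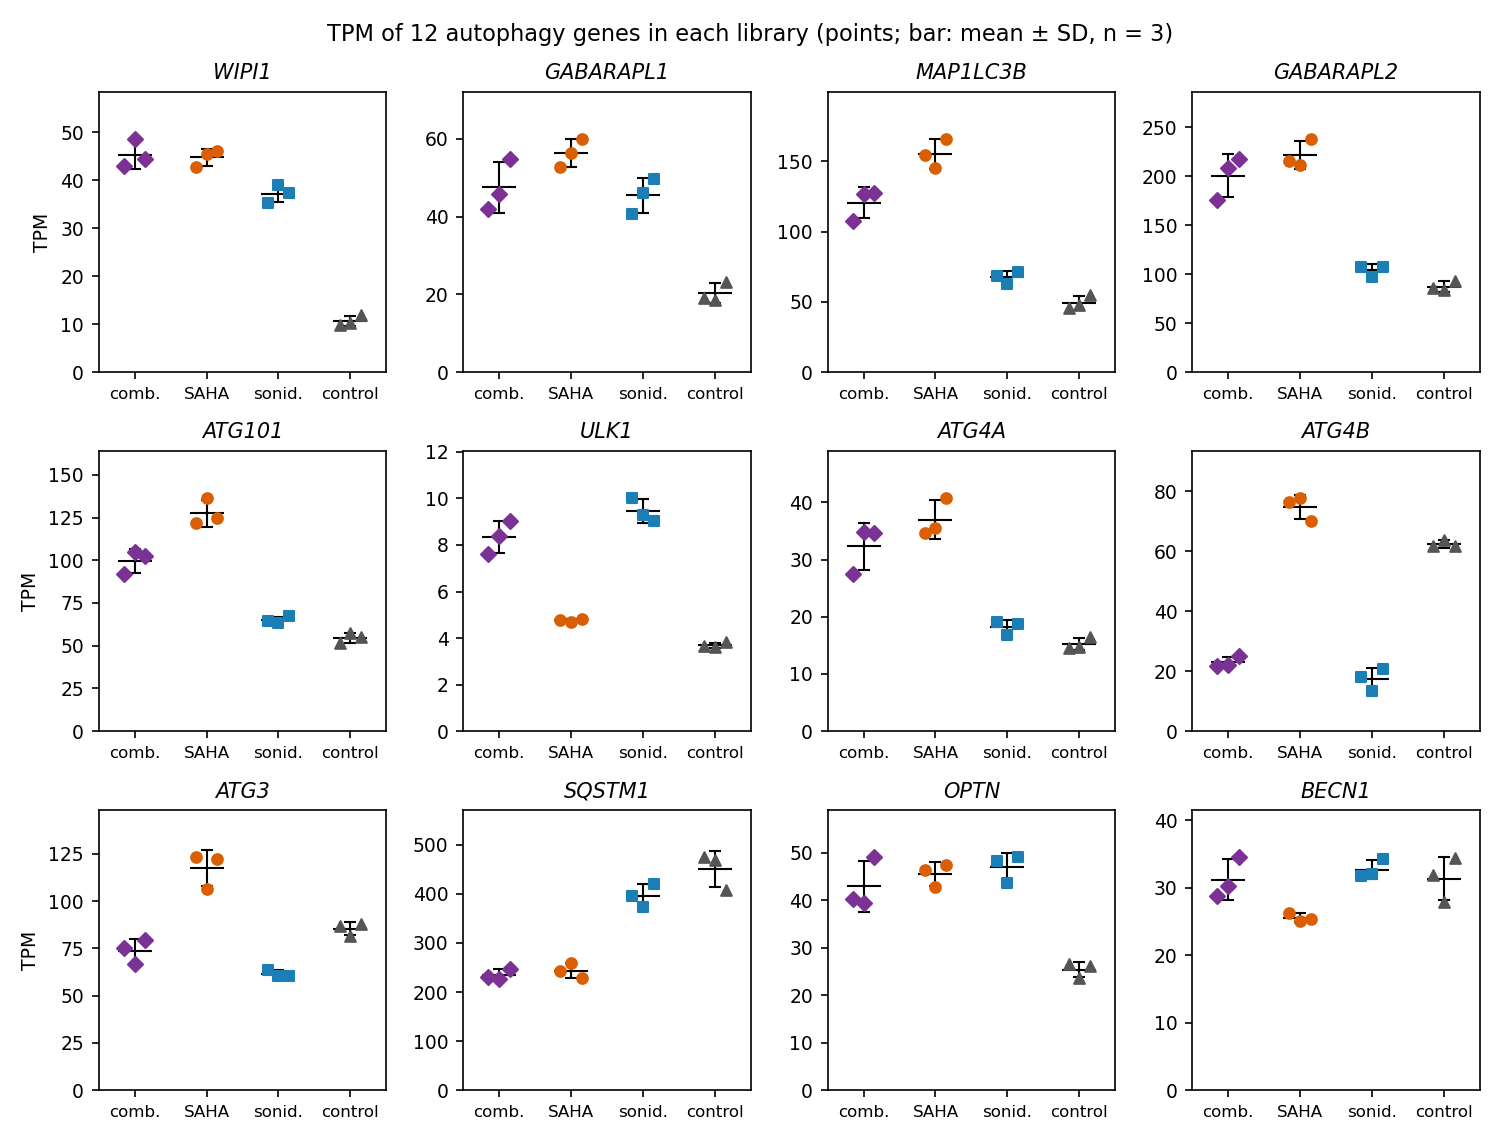
TPM (y axis, from 0) of 12 autophagy genes in each library of the combination, SAHA, sonidegib and control groups; black bars show the mean and SD (n = 3). WIPI1 and GABARAPL1 are raised in all 3 treated groups, MAP1LC3B, GABARAPL2, ATG101 and ATG4A mainly in the groups with SAHA, ULK1 mainly in those with sonidegib, and ATG4B is low in both groups with sonidegib (13.5 to 25.1 TPM).

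The conjugation enzymes moved in both directions. ATG16L1, which with ATG5 and ATG12 forms the complex that places ATG8 proteins on membrane, had the largest rise. It was at 17.6, 32.0 and 29.4 TPM in the combination, 21.9, 29.1 and 23.4 TPM with SAHA, 25.3, 20.4 and 25.2 TPM with sonidegib, and 11.7, 13.9 and 16.6 TPM in control. The fitted log2 change was 0.83 ± 0.20 in the combination, 0.78 ± 0.20 with SAHA and 0.71 ± 0.20 with sonidegib, and each call held in every alternative. ATG3 (ENSG00000144848, chr3:112532509-112562046, minus strand) encodes the E2-like enzyme that passes ATG8 proteins to the lipid. It was at 75.1, 66.9 and 79.4 TPM in the combination, 123, 106 and 122 TPM with SAHA, 63.8, 60.1 and 60.4 TPM with sonidegib, and 86.8, 81.3 and 87.9 TPM in control. The SAHA libraries were highest and the sonidegib libraries lowest, with no overlap between groups. Its log2 change was 0.45 ± 0.08 with SAHA and -0.47 ± 0.08 with sonidegib; the fall in the combination (-0.21 ± 0.08) was called but lost in 8 of 23 alternatives, including every other scaling. ATG7, the E1-like enzyme that starts both conjugation reactions, was at 12.5, 11.8 and 9.64 TPM in the combination, 12.5, 18.2 and 17.5 TPM with SAHA, 10.0, 10.1 and 12.1 TPM with sonidegib, and 16.2, 15.1 and 14.4 TPM in control. The fitted log2 change was -0.40 ± 0.14 in the combination (lost in 8 of 23 alternatives) and -0.47 ± 0.14 with sonidegib (lost without sonidegib replicate 1, at -0.42, or replicate 2, at -0.43). ATG12, the ubiquitin-like partner of ATG5, was higher in the combination (0.40 ± 0.14) and with sonidegib (0.40 ± 0.14), each lost in 5 of 23 alternatives. ATG5 was higher in the combination (0.40 ± 0.14) and with SAHA (0.41 ± 0.14), each lost in 4 of 23. ATG10, the E2-like enzyme for ATG12, was called only with sonidegib among the treatments set against control (0.31 ± 0.12), and lost that call in 15 of 22 alternatives. ATG10 shares 374 exon bases with RPS23, a ribosomal protein gene on the opposite strand at a mean of 4223 TPM, and whether the counting used strand is not given in the sources used here.

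The promoter of ATG3 is shown because it holds CACGTG, the E-box core of the element that TFEB and TFE3 bind. The line gives the 250 bases before the RefSeq start (GRCh38.p14, chr3:112561963-112562212, minus strand), with CACGTG in capitals 18 bases before the start. A further copy, within the 8 letters TCACGTGA, lies 5 bases past the start and outside the printed stretch.
ATG3: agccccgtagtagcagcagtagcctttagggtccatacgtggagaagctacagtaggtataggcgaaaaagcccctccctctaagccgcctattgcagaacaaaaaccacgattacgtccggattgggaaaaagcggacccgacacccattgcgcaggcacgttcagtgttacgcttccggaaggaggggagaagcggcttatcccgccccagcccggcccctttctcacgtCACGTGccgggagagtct
Of all windows, 7.26% held CACGTG and 0.98% held TCACGTGA. Among the member windows, only those of ATG3 and ATG14 held CACGTG.

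The ATG4 proteases, which trim new ATG8 proteins and later release them from lipid, split most sharply. ATG4B (ENSG00000168397, chr2:241637213-241673857, plus strand), the main LC3 protease, was at 21.7, 22.1 and 25.1 TPM in the combination, 76.3, 77.9 and 70.0 TPM with SAHA, 18.1, 13.5 and 20.8 TPM with sonidegib, and 61.8, 63.9 and 61.6 TPM in control. All 6 libraries with sonidegib lay far below all 6 without it. The mean ratio to control was 0.368 in the combination and 0.28 with sonidegib, and the log2 change was -1.41 ± 0.12 and -1.80 ± 0.12 (adjusted p 1.44e-06 and 3.75e-07). This was the largest fall of the members, and the change with SAHA (0.26 ± 0.12) was not called. ATG4A moved otherwise, at 27.6, 34.8 and 34.6 TPM in the combination, 34.6, 35.5 and 40.8 TPM with SAHA, 19.1, 16.8 and 18.8 TPM with sonidegib, and 14.6, 14.7 and 16.4 TPM in control. Its log2 change was 1.03 ± 0.10 in the combination and 1.23 ± 0.10 with SAHA (adjusted p 4.05e-06 and 1.21e-06), and 0.24 ± 0.10 with sonidegib was not called. ATG4D, the most abundant of the proteases in every group, was at 112 to 121 TPM in the combination, 130 to 136 TPM with SAHA, 78.5 to 82.7 TPM with sonidegib and 82.8 to 85.1 TPM in control. The fitted log2 change was 0.48 ± 0.04 in the combination and 0.66 ± 0.04 with SAHA. ATG4C was at 9.77, 10.7 and 11.2 TPM in the combination, 7.36, 6.33 and 7.97 TPM with SAHA, 9.15, 9.78 and 9.90 TPM with sonidegib, and 8.95, 9.32 and 7.84 TPM in control. Its call as higher in the combination (0.26 ± 0.10) was lost in 6 of 23 alternatives and its call as lower with SAHA (-0.24 ± 0.10) in 16 of 23. The share of ATG4B in the summed ATG4 level was 12.5% ± 1.03 in the combination, 29.7% ± 1.6 with SAHA, 13.8% ± 2.65 with sonidegib and 36.7% ± 0.211 in control (SD, n = 3 each).

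**Figure D3:**
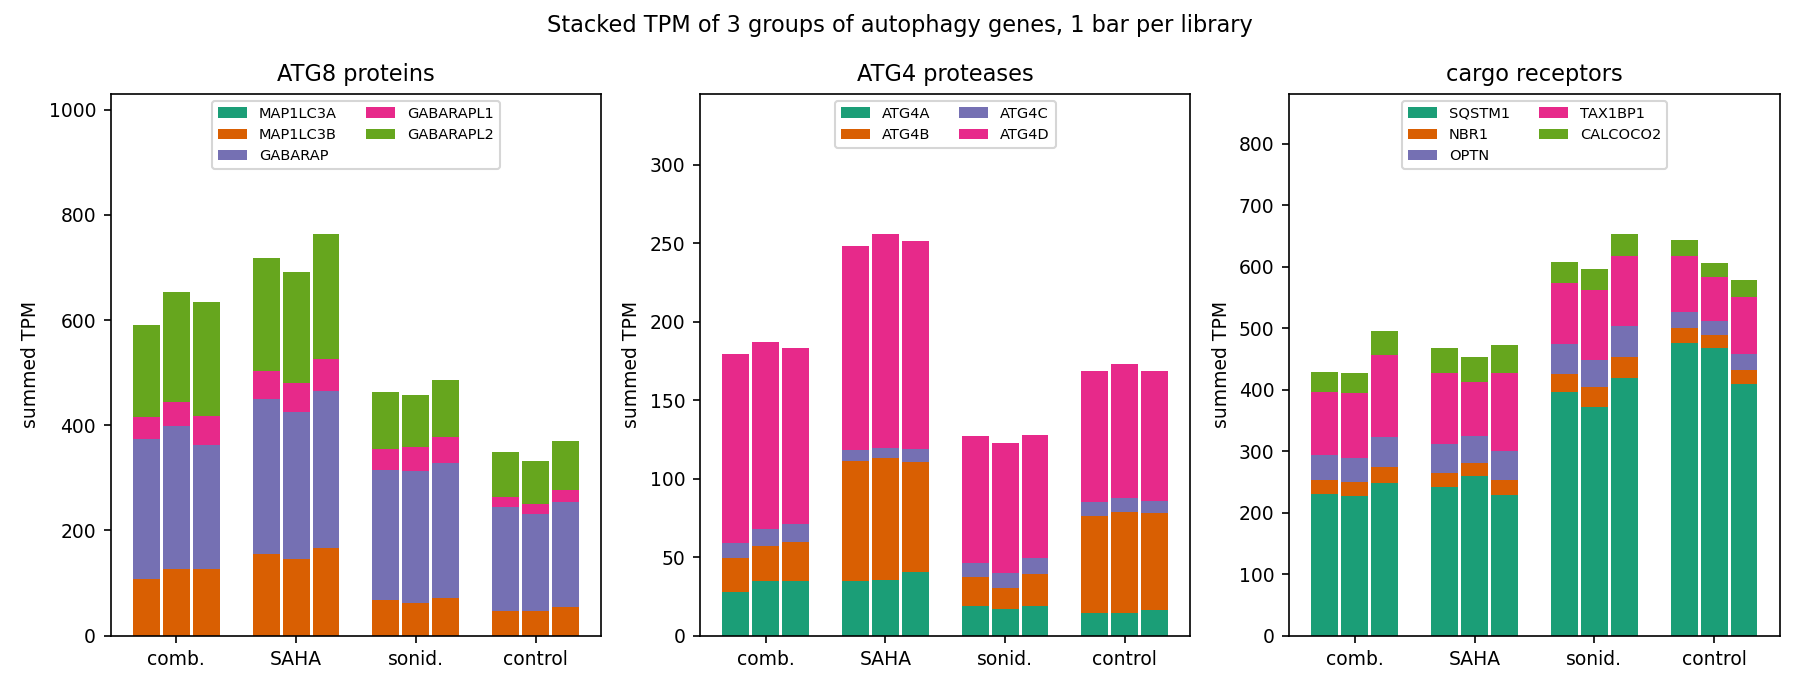
Summed TPM (y axis, from 0) of the ATG8 genes, the ATG4 proteases and the cargo receptors, 1 stacked bar per library of the combination, SAHA, sonidegib and control groups; colours mark the genes. The ATG8 sum is lowest in control (333 to 371 TPM), the ATG4B part is small in both groups with sonidegib, and SQSTM1 makes up most of the cargo receptor sum in control (73.9% ± 3.29).

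Of the cargo receptors, OPTN and CALCOCO2 rose in each comparison with control, and SQSTM1 fell clearly only in the groups with SAHA. SQSTM1 (p62; chr5:179806398-179838078, plus strand) encodes the receptor that gathers ubiquitin-tagged protein and is itself digested with it. It was at 230, 226 and 247 TPM in the combination, 242, 259 and 229 TPM with SAHA, 395, 373 and 420 TPM with sonidegib, and 476, 468 and 408 TPM in control. The 6 libraries with SAHA lay below all others, and sonidegib overlapped control. The mean ratio to control was 0.521 in the combination and 0.54 with SAHA, with log2 changes of -0.94 ± 0.07 and -0.89 ± 0.07 (adjusted p 4.89e-07 and 9.48e-07). The fall with sonidegib (-0.19 ± 0.07, adjusted p 0.0455) was lost in 15 of 23 alternatives and took the other sign under quantile normalization (0.08). OPTN (optineurin, a receptor for bacteria and damaged mitochondria; chr10:13099449-13138308, plus strand) was at 40.2, 39.5 and 49.2 TPM in the combination, 46.5, 42.8 and 47.5 TPM with SAHA, 48.4, 43.7 and 49.1 TPM with sonidegib, and 26.6, 23.6 and 26.1 TPM in control. The 3 treated groups overlapped one another, all above control. Its log2 change was 0.73 ± 0.09, 0.82 ± 0.09 and 0.86 ± 0.09 in the combination, SAHA and sonidegib groups (adjusted p 2.39e-05, 1.09e-05 and 9.65e-06). CALCOCO2 (NDP52, a receptor for bacteria and mitochondria) was higher by 0.44 ± 0.09, 0.69 ± 0.09 and 0.41 ± 0.09 in the same groups. NBR1, a receptor related to SQSTM1, was called against control only with sonidegib (0.52 ± 0.09, adjusted p 0.000395), at 30.7, 32.1 and 34.1 TPM with sonidegib and 23.9, 19.7 and 23.4 TPM in control. TAX1BP1 was called higher in the combination (0.41 ± 0.15, lost in 3 of 23 alternatives, among them those without control replicate 2, at 0.29, and without combination replicate 3, at 0.29) and with SAHA (0.36 ± 0.15, lost in 13 of 23). The ratio of SQSTM1 to MAP1LC3B was 1.96 ± 0.178 in the combination, 1.58 ± 0.205 with SAHA, 5.87 ± 0.0632 with sonidegib and 9.22 ± 1.59 in control (SD, n = 3 each), with the groups that received SAHA lowest and control highest.

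The subsets are set side by side by their counts, medians and sums. Of the 10 initiation genes, 4 were higher and 0 lower in the combination (0 also at an unadjusted limma p under 0.05), 4 higher and 1 lower with SAHA, and 4 higher and 1 lower with sonidegib. Their median log2 change was 0.28, 0.03 and 0.16 in the same 3 treatments. Of the 10 conjugation and ATG4 genes, 6 were higher and 3 lower in the combination, 5 and 1 with SAHA, and 3 and 3 with sonidegib, with medians of 0.33, 0.33 and 0.15. Of the 5 cargo receptors 3 were higher and 1 lower in each treatment, with medians of 0.41, 0.36 and 0.41. The 5 membrane supply genes had medians of 0.45, 0.85 and 0.20. The 4 tested ATG8 genes had medians of 1.19, 1.38 and 0.41, against -0.02, 0.05 and -0.02 for all 13937 tested genes. In the combination, SAHA and sonidegib groups, 63.7%, 58.7% and 55.3% of all tested genes were called. The called shares of the initiation genes, 40%, 50% and 50%, lay below these. For the conjugation and ATG4 genes they were 90%, 60% and 60%, and for the cargo receptors 80% in each treatment. These subsets are small, and the differences between them were not tested. In summed TPM the order of the treatments also differed by subset. The initiation genes summed to 223 ± 21 TPM in the combination, 248 ± 7.01 TPM with SAHA, 188 ± 6.73 TPM with sonidegib and 164 ± 11.2 TPM in control. The conjugation and ATG4 genes summed to 341 ± 15.3, 452 ± 7.4, 264 ± 5.88 and 320 ± 6.76 TPM, with sonidegib below control. The cargo receptors summed to 451 ± 38.7, 464 ± 9.46, 619 ± 30.4 and 609 ± 32.6 TPM, with both groups that received SAHA below the others, and SQSTM1 was the largest part.

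Set against each single drug, the mean of the combination was nearer to SAHA for MAP1LC3B, GABARAPL2 and SQSTM1, and nearer to sonidegib for ATG4B and ULK1. Of the 34 members, 6 were higher and 12 lower in the combination than with SAHA, against 50.9% of all tested genes called, 18% higher and 33% lower. Scaling mattered here, since other scalings moved the median of all genes in this comparison by 0.11 to 0.115, and gave 9 higher and 7 lower (median-of-ratios and 75th percentile) or 11 higher and 5 lower (quantile). The balance of all genes moved as well. Of all genes called, 49.6% were higher with median-of-ratios, 48.9% with 75th percentile and 50.1% with quantile scaling. The members lower than with SAHA in every alternative were PIK3C3, ATG9A, ATG2A, ATG3 and ATG4B, and those higher were ULK1, ATG14 and ATG4C. ATG4B differed most, with 21.7 to 25.1 TPM in the combination and 70.0 to 77.9 TPM with SAHA (log2 -1.66 ± 0.12, adjusted p 9.56e-07), followed among falls by ATG3 (-0.66 ± 0.08) and ATG9A (-0.64 ± 0.11). ULK1 was the largest rise (0.69 ± 0.08, adjusted p 3.46e-05). Against sonidegib, 10 members were higher in the combination and 2 lower, where 38.5% of all tested genes were called, 17.5% higher and 21% lower. The rises that held in every alternative were GABARAPL2 (0.94 ± 0.08), MAP1LC3B (0.83 ± 0.09), ATG4A (0.79 ± 0.10), ATG101 (0.61 ± 0.07), ATG4D (0.54 ± 0.04), PIK3R4 (0.51 ± 0.11) and ATG2A (0.25 ± 0.06). The falls were SQSTM1 (-0.75 ± 0.07) and NBR1 (-0.39 ± 0.09). WIPI1 was higher by 0.28 ± 0.08, lost without sonidegib replicate 1 (0.24) or combination replicate 2 (0.23).

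The effects of the drugs did not add for many members. The interaction is the effect of SAHA on top of sonidegib minus the effect of SAHA alone, and a negative value means that the combination lay below the sum of the log2 changes of the single drugs. It was called as negative for 14 of the 34 members and as positive for none, where 31.4% of all tested genes were called, 19.7% negative and 11.8% positive. At an unadjusted p under 0.05 by limma, 1 member, ATG4C, was positive. By sign alone 23 members were negative and 11 positive. The median was -0.35 over the members and -0.08 over all tested genes, and other scalings of the libraries moved the median of all genes by 0.09 to 0.10. With these scalings BECN1 (0.27 to 0.33) and ATG4C (0.46 to 0.47) became called as positive, and 13 or 14 members were negative. WIPI1 had the largest interaction (-1.69 ± 0.11, adjusted p 1.56e-06). Its single-drug changes sum to 3.68 on the log2 scale, while the combination reached 1.99. GABARAPL1 followed (-1.38 ± 0.16, adjusted p 9.37e-05), with a sum of 2.56 against 1.19 in the combination. OPTN (-0.95 ± 0.13, adjusted p 0.000211) had a sum of 1.68 against 0.73, and MAP1LC3B (-0.81 ± 0.13, adjusted p 0.000661) a sum of 2.08 against 1.27. By subset, all 4 tested ATG8 genes were called (median -0.68), 3 of 5 membrane supply genes (-0.71), 3 of 5 cargo receptors (-0.46), 3 of 10 initiation genes (-0.04) and 1 of 10 conjugation and ATG4 genes (-0.15). ATG4B (0.14 ± 0.17) and SQSTM1 (0.14 ± 0.10) were not called, with 95% intervals of -0.24 to 0.52 and -0.09 to 0.36. Of the 14 calls, 10 held in every alternative, and those of PIK3C3, ATG2B, ATG4A and GABARAPL2 were lost in 12 of 22, 8 of 21, 9 of 22 and 6 of 22. This contrast compares libraries across the sets with and without 5S ribosomal RNA, as stated above.

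**Figure D4:**
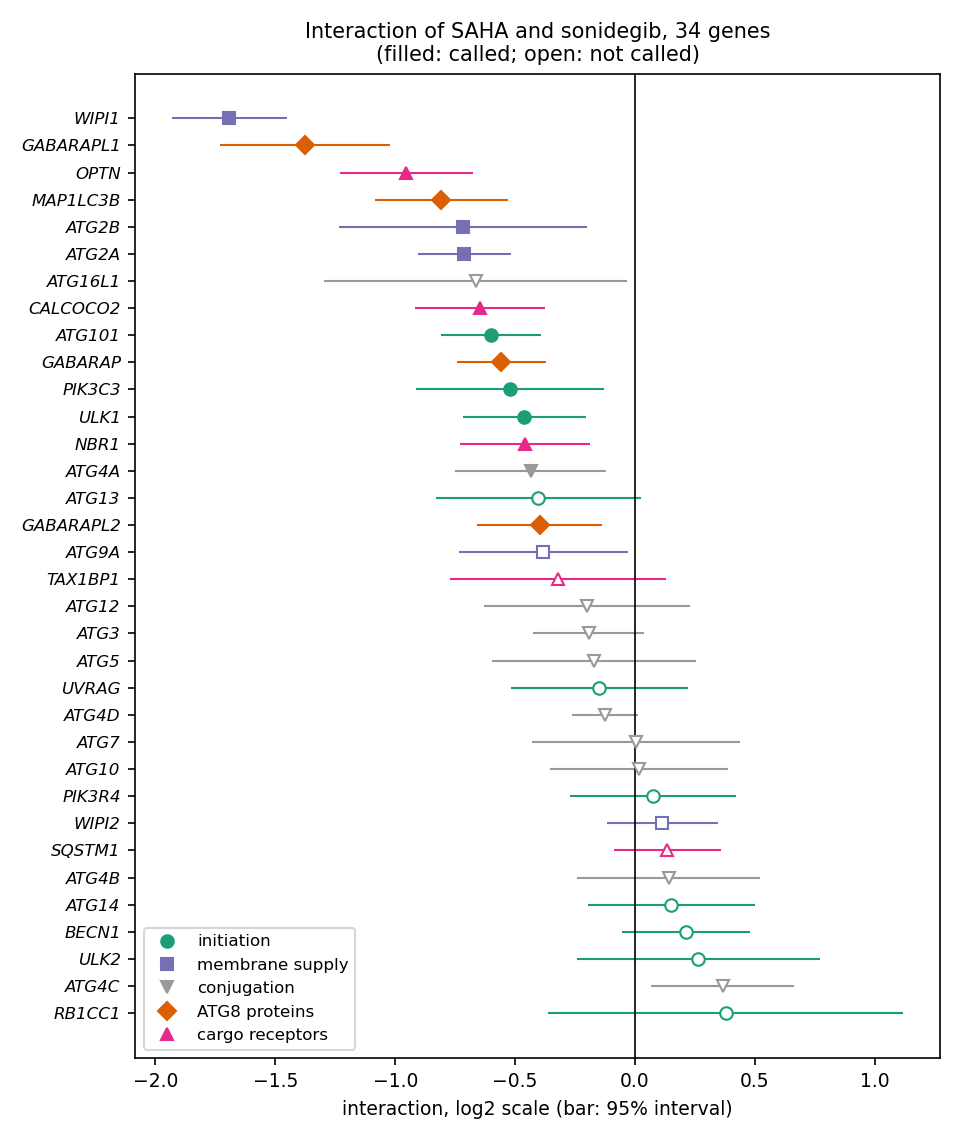
Interaction of SAHA and sonidegib on the log2 scale (x axis) for the 34 tested autophagy genes, sorted by value; bars are 95% intervals, filled points passed an adjusted p of 0.05, and colour and shape mark the subset. The 14 called genes all lie left of 0, from WIPI1 at -1.69 to GABARAPL2 at -0.40.

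The SAHA response with and without sonidegib can be set side by side because the combination minus sonidegib and SAHA minus control share no library. With both tests, 9 members were higher and 1, SQSTM1, lower in both settings, 14 were called with SAHA alone but not on top of sonidegib, 2 only on top of sonidegib and 8 in neither. None had opposite calls. Of the tested members 29.4% had the same call in both settings (26.5% higher), near the 27.6% of all tested genes (13.8% higher). Those called with SAHA alone were 41.2% of the members and 28.5% of all genes, and those called in neither were 23.5% and 33% of them. ATG101 changed by 0.61 ± 0.07 on top of sonidegib and 1.21 ± 0.07 alone, and GABARAPL2 by 0.94 ± 0.08 and 1.33 ± 0.08. PIK3R4 changed by similar amounts, 0.51 ± 0.11 and 0.43 ± 0.11, and SQSTM1 by -0.75 ± 0.07 and -0.89 ± 0.07. For GABARAPL1 the change was 0.06 ± 0.11 on top of sonidegib and 1.44 ± 0.11 alone, and for OPTN -0.13 ± 0.09 and 0.82 ± 0.09. The test of each such difference is the interaction given above.

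**Figure D5:**
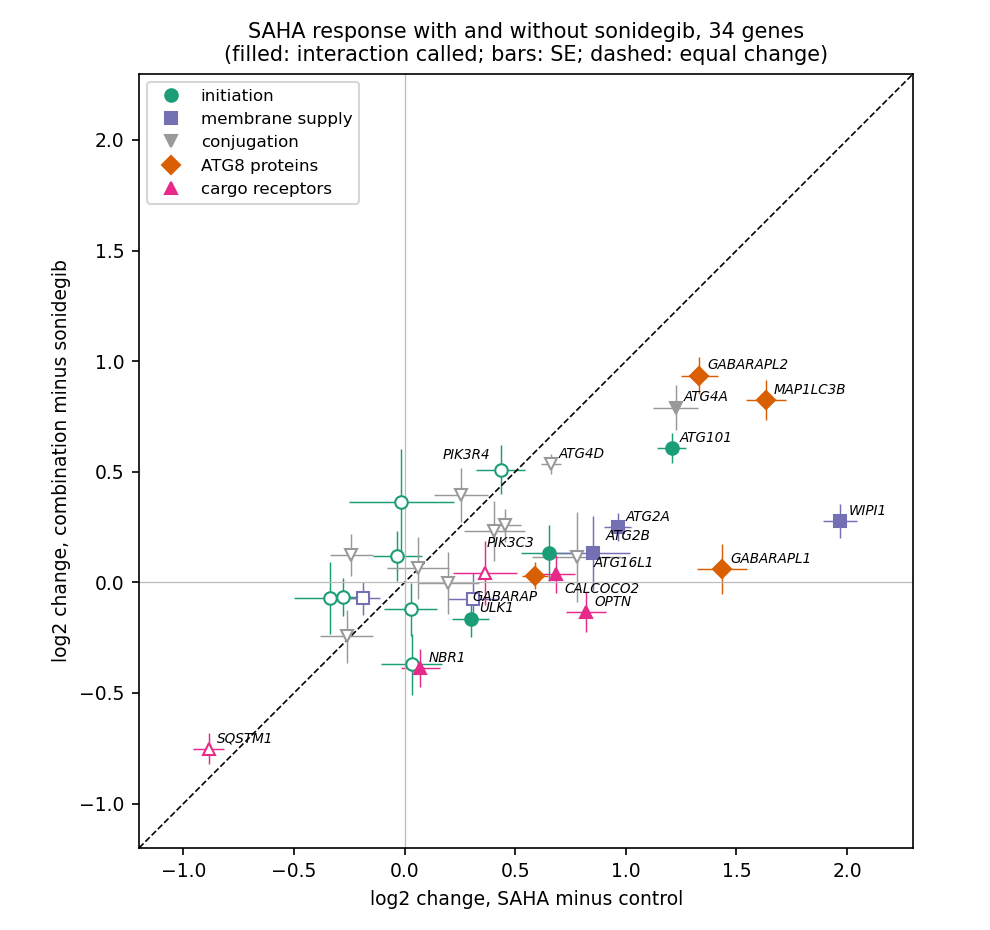
Log2 change with SAHA on top of sonidegib (y axis, combination minus sonidegib) against that without it (x axis, SAHA minus control) for 34 autophagy genes; bars are SE, filled points have a called interaction, and the dashed line marks equal change. WIPI1 (1.97 and 0.28) and GABARAPL1 (1.44 and 0.06) lie far below the line, while SQSTM1 and PIK3R4 lie near it.

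Other genes of the pathway, taken from lists drawn up with earlier results of these data known, are given by counts and examples, to be read against the 63.7%, 58.7% and 55.3% of all tested genes called in the combination, SAHA and sonidegib groups. Of 13 further genes of autophagosome formation, 11 were tested, and 6 were higher and 1 lower in the combination, 8 and 1 with SAHA, and 3 and 1 with sonidegib (63.6%, 81.8% and 36.4% called). With SAHA, 3 of them were called with a rise of at least 1 on the log2 scale. These were TMEM41B (1.15 ± 0.11) and VMP1 (1.08 ± 0.10), scramblases of the endoplasmic reticulum, and MAP1LC3B2, whose levels are given above. VMP1 fell with sonidegib (-0.44 ± 0.10). NRBF2, a subunit of the phosphatidylinositol 3-kinase complex, rose in the combination (0.95 ± 0.12) and with sonidegib (0.74 ± 0.12). Its mean with SAHA alone, 21.1 ± 3.21 TPM, was near that with sonidegib, 21.2 ± 1.81 TPM, and above control, 12.3 ± 1.19 TPM. Of 15 genes of fusion with the lysosome, 9 were higher and 1 lower in the combination, 11 and 1 with SAHA, and 3 and 3 with sonidegib (66.7%, 80% and 40% called). PLEKHM1, an adaptor between autophagosome and lysosome, rose by 0.98 ± 0.10 in the combination and 1.28 ± 0.10 with SAHA. STX17, the autophagosomal SNARE, fell with SAHA (-0.62 ± 0.14). Of 15 receptors and adaptors of organelle autophagy, 6 were higher and 4 lower in the combination, 8 and 3 with SAHA, and 4 and 5 with sonidegib (66.7%, 73.3% and 60% called). CALCOCO1, a receptor for the endoplasmic reticulum and Golgi related to CALCOCO2, averaged 27.2 ± 2.91 TPM in the combination, 37.4 ± 3.98 TPM with SAHA, 19.5 ± 2.17 TPM with sonidegib and 7.47 ± 1.02 TPM in control. Its log2 changes were 1.74 ± 0.12, 2.18 ± 0.12 and 1.28 ± 0.12, and its interaction was -1.72 ± 0.17 (adjusted p 2.51e-05). RETREG1 (FAM134B), a receptor for the endoplasmic reticulum, rose with SAHA alone (1.61 ± 0.18) and was not called in the combination (0.32 ± 0.18). TEX264, another such receptor, fell to 11.3 ± 1.21 TPM in the combination, 29.7 ± 1.39 TPM with SAHA and 21.4 ± 2.09 TPM with sonidegib, against 47.5 ± 2.76 TPM in control.

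Among 15 upstream regulators, 4 were higher and 3 lower in the combination, 4 and 3 with SAHA, and 5 and 3 with sonidegib. These are 46.7%, 46.7% and 53.3% of the list, below the 63.7%, 58.7% and 55.3% of all tested genes called. The 3 lower genes were AKT1S1, RPTOR and MLST8 each time. All encode subunits of the mTORC1 kinase complex, which restrains autophagy when nutrients are plentiful. DEPTOR, another subunit on the list, did not fall. It averaged 18.2 ± 1.56 TPM in the combination, 15.3 ± 5.4 TPM with SAHA, 20.2 ± 1.55 TPM with sonidegib and 13.8 ± 1.74 TPM in control. AKT1S1 (PRAS40), an inhibitory subunit of that complex, averaged 18.0 ± 0.916 TPM in the combination, 22.9 ± 1.96 TPM with SAHA, 33.9 ± 2.58 TPM with sonidegib and 78.1 ± 5.9 TPM in control. RPTOR (Raptor), the scaffold subunit, changed by -1.13 ± 0.07, -0.45 ± 0.07 and -0.84 ± 0.07 in the combination, SAHA and sonidegib groups, whereas the kinase MTOR was not called in any comparison and stood at 17.6 to 25.7 TPM. Of the transcription factors known to activate autophagy and lysosome genes, MITF rose by 0.82 ± 0.15, 0.92 ± 0.15 and 0.46 ± 0.15 from a low level (1.70 ± 0.333 TPM in control). TFEB was higher with sonidegib only (0.37 ± 0.09), and TFE3 with SAHA (0.33 ± 0.07) and sonidegib (0.24 ± 0.07) but not in the combination (-0.15 ± 0.07), with a negative interaction for both (-0.41 ± 0.13 and -0.72 ± 0.09). DDIT3 (CHOP), a stress factor, averaged 82.1 ± 11.5 TPM in the combination, 5.73 ± 0.342 TPM with SAHA, 53.8 ± 4.58 TPM with sonidegib and 6.48 ± 2.15 TPM in control. CDKN1A, a gene that histone deacetylase inhibitors are known to induce, averaged 58.3 ± 5.89, 113 ± 2.51, 11.9 ± 0.369 and 4.38 ± 0.832 TPM in the same groups, with an interaction of -2.22 ± 0.15.

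Promoter windows were found in the RefSeq table for 31 of the 35 members (38 windows). GGGGCGGGG was held by 15 of the 38 windows (39.5%), from 14 genes, against 15.7% of all windows. They include the 4 tested ATG8 genes, WIPI1, ULK1, OPTN and CALCOCO2, and also SQSTM1 and WIPI2. The windows of OPTN overlap and hold the same copy. This motif was chosen after the WIPI1 sequence had been read, and all windows were not limited to expressed genes. The shares are therefore a description, and their difference was not tested. TGACNNNGC was held by 3 (ATG101, CALCOCO2 and MAP1LC3B), CACGTG by 2 and TGACGTCA by 1 (GABARAPL1). TGATGNAA, the core of the element bound by ATF4 and CHOP, was held by none, against 3.62% of all windows. The promoter of ATG4B, the member with the largest fall, is also shown (GRCh38.p14, chr2:241637443-241637692, plus strand) and held none of the motifs searched. The windows of ATG4A, ATG16L1 and ATG2A, which rose, held none of them either, so this does not set ATG4B apart.
ATG4B: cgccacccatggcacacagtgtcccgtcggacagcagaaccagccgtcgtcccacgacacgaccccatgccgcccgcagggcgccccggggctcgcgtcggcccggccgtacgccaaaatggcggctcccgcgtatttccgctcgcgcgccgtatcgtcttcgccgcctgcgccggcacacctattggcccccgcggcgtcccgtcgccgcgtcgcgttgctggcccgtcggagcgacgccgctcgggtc
All motifs were searched on both strands, TCACGTGA is a longer form of CACGTG, and a match describes letters in a window and not a bound site. The GENCODE 29 spans of the genes whose promoters are printed reach past the RefSeq start used here, so the printed stretch lies wholly inside the gene span of that release for MAP1LC3B, GABARAPL1 and ATG4B and partly inside it for WIPI1 and ATG3.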

How the data were processed

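RNA sequencing of 12 libraries in 4 groups of 3 was analysed from one table of TPM for 59324 genes that the authors deposited. Per the labels' protocols, RNA was extracted with TRIzol and standard Illumina libraries were made. Per the submitters' processing notes, Bowtie2 2.4.1 and GRCh38 were used; the quantification tool, its annotation and the use of strand are not given in the sources used here. TPM do not keep depth, so the depth per library is unknown. The 13937 genes whose mean over the 12 libraries reached 1 TPM entered the test, as log2(TPM + 1), in limma 3.58.1 (R 4.3.3, intensity trend, 4 group means over all 12 libraries, two-sided, Benjamini-Hochberg over all tested genes, call at adjusted p under 0.05). Fold changes on this scale understate the change of low genes. The model was tested on simulated data, where it recovered 83.3% of 66 genes changed by 1 on the log2 scale for SAHA minus control and 63.6% of 66 for the interaction. For a change of 0.5 it recovered 57.4% of 68 and 14.5% of 69. The simulation changed a far smaller share of genes than was called in these data. Alternatives were another pseudocount, filters, scalings, a replicate block, the groups compared only, and each library left out. Gene coordinates are from GENCODE 29, and promoters from RefSeq (GRCh38.p14). Values in every library are printed for members with a called change of at least 1 on the log2 scale (0.75 for the interaction) and for the largest called rise and fall of each role, and other members are given more briefly. The members and lists were chosen with earlier results of these data known. One marker gene is not reported here.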

Additional observations from a re-analysis of the deposited data

Results flagged for a closer look

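For 14 autophagy genes the SAHA effect differed with and without sonidegib by limma's interaction test (combination minus sonidegib, less SAHA minus control). They are 41.2% of the 34 tested members, all negative, where 31.4% of all tested genes were called, 19.7% negative. The calls of PIK3C3, ATG4A, ATG2B and GABARAPL2 were lost in 12 of 22, 9 of 22, 8 of 21 and 6 of 22 alternatives. In the ULK and phosphatidylinositol 3-kinase complexes the log2 difference was -0.46 for ULK1, -0.60 for ATG101 and -0.52 for PIK3C3. Among the genes that supply membrane it was -1.69 for WIPI1, -0.71 for ATG2A and -0.72 for ATG2B. It was -0.44 for the protease gene ATG4A. The ATG8 genes had -1.38 for GABARAPL1, -0.81 for MAP1LC3B, -0.56 for GABARAP and -0.40 for GABARAPL2. The cargo receptors had -0.95 for OPTN, -0.65 for CALCOCO2 and -0.46 for NBR1. The libraries with and without sonidegib also differ in 5S ribosomal RNA, and an effect of that difference on these values cannot be told apart from sonidegib.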

How the results depend on the processing

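Of the calls among the 34 tested members, those held in every alternative that could be run are named above. Quantile normalization turned the sign of ATG4D (0.035), GABARAP (0.066) and SQSTM1 (0.18) in combination minus SAHA and of SQSTM1 in sonidegib minus control (0.075); the cause was not tested. The 4 members lower with SAHA became 2 with no filter on low values, without mitochondrial and ribosomal RNA genes, with the replicate block and with only the groups compared, and 5 with median-of-ratios or 75th percentile scaling and 6 with quantile normalization. The 6 lower in the combination became 3 with no filter or median-of-ratios scaling, and 2 with 75th percentile scaling, quantile normalization or without mitochondrial and ribosomal RNA genes. In combination minus SAHA, the 6 higher became 9 with median-of-ratios or 75th percentile scaling and 11 with quantile normalization, and the 12 lower became 7, 7 and 5. The interaction had 0 higher by limma and 2 under each of these 3 scalings.

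With each library left out in turn, members higher and lower numbered 14 to 20 and 3 to 6 in the combination, 17 to 20 and 2 to 3 with SAHA, and 12 to 18 and 3 to 5 with sonidegib. They numbered 3 to 6 and 8 to 12 in combination minus SAHA, 8 to 10 and 2 to 4 in combination minus sonidegib, and 0 to 1 and 10 to 15 in the interaction. With the replicate block, higher and lower counts were 20 and 6 in the combination, 19 and 2 with SAHA, 18 and 4 with sonidegib, 6 and 13 in combination minus SAHA, 10 and 3 in combination minus sonidegib, and 0 and 15 in the interaction. Same-numbered pairs of libraries correlated at -0.059 to 0.111 (1 of 18 over 0.1) and pairs of different number at -0.107 to 0.097 (0 of 36 over 0.1). Of the 12 libraries, 6 correlated best with their own number. Correlations this small cannot settle whether the numbers pair the libraries, and the main fit did not use the numbers. A fit of only the groups compared cannot be had for the interaction. Depth is unknown, and 3 libraries a group limit what small changes could be called.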
